A study of Homo sapiens with 4 samples.

Results

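Of 19014 nuclear protein-coding genes, 20 had high coding-transcript levels in mitoplasts from both young and senescent fibroblasts and much lower levels in the matching whole cells. Mitoplasts are mitochondria without their outer membrane. Members were chosen by measured values: 20 FPKM or more in both mitoplast libraries, and a ratio (mitoplast + 1)/(whole cells + 1) of 4 or more at both doubling levels. FPKM means fragments per kilobase of transcript scaled to the mapped fragments of the library, so that transcript length is taken into account. The 4 values of each gene therefore describe the choice and support nothing by themselves. Among the 578 coding genes at 20 FPKM or more in both mitoplast libraries, 46 (7.96%) passed the ratio in young cells, 40 (6.92%) in senescent cells and 20 (3.46%) in both. The other 558 genes of like mitoplast level, which failed the ratio at 1 or both doubling levels, served as the comparison: 26 passed in young cells only, 20 in senescent cells only and 512 in neither.

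The cells were WI-38, a human fibroblast line from fetal lung that divides a limited number of times and then becomes senescent. Young cells at PDL 21 (population doubling level) and senescent cells at PDL 60 each gave a whole cell library and a mitoplast library. All were grown in DMEM with 10% fetal bovine serum, and the labels name no added gene or drug in any group. Mitoplasts came from CHAPS-lysed cells by hypotonic swelling, and RNase A was applied 2 times, with proteinase K to stop it. Each group was 1 library, so there is no replicate error, no test and no p-value, and every ratio below compares 1 library with 1 library. In bulk RNA, fewer cells holding a transcript and less of it per cell cannot be told apart.

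Mitochondria have their own small genome, and nearly all of their proteins are encoded in the nucleus, translated in the cytosol and imported. Messenger RNAs for many such proteins are known to gather at the outer surface of the organelle. The mitoplast preparation removes the outer membrane, and RNase A digests RNA that no membrane or bound protein protects. A nuclear coding RNA that is found in a mitoplast library can therefore have been inside the inner membrane, protected outside it, or carried over, and these data do not separate those cases.

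The members had roles in gene regulation and chromatin, signalling, transport and energy metabolism, and protein or RNA handling. Only MRPL33, a protein of the large mitochondrial ribosomal subunit, and NDUFC2-KCTD14, a readthrough of a respiratory complex I subunit gene and its neighbour, are tied by name to mitochondrial function. Of 37 gene lists, 5 held 1 member each and the other 15 members were in none. Among 76 genes for mitochondrial ribosomal proteins, 3 reached 20 FPKM in both mitoplast libraries and MRPL33 was the member. Oxidative phosphorylation subunits numbered 89, of which 27 reached that level and NDUFC2-KCTD14 was the member. The zinc finger family held ZBTB7C among 3 genes at that level, the ubiquitin list UBE2G1 among 6, and the replication-dependent histones H2BC18 among 9. Of the other histones at that level, 6 passed the ratio in senescent cells only and 2 in neither, where 6.92% of the 578 genes passed in senescent cells. Cytosolic ribosomal protein genes gave 0 members, with 68 of 86 at that level, and the humanin-like MTRNR2L family had none of 11 at that level. Each list's share can be read against the 3.46% of all 578 genes.

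The FPKM of several members came from short or partial transcript models, and 6 coding stretches are shown for that reason. They are the annotated coding parts of the leading transcripts, meaning those with the most FPKM in a mitoplast library, from GENCODE release 29 (build GRCh38). Each runs 5′ to 3′ with the start codon in capitals. The first 4 models end before a stop codon is annotated. ZBTB7C encodes a BTB-domain zinc finger transcription regulator, and its 347-nt model has 75 coding bases at chr18:48041033-48041107, minus strand. BCOR encodes a corepressor that binds BCL6, and its 288-nt model has 86 coding bases at chrX:40077844-40077929, minus strand. RFX2 encodes a transcription factor of ciliary genes, and its 337-nt model has 99 coding bases in 2 exons between chr19:6013039-6016121, minus strand. PABPC4 encodes a cytoplasmic poly(A)-binding protein, and its 532-nt model has 14 coding bases at chr1:39575938-39575951, minus strand. MRPL33 is shown by 2 models, which led in the young (404 nt, 162 coding bases at chr2:27771778-27779553, plus strand) and in the senescent mitoplast library (518 nt, 195 coding bases at chr2:27771778-27779479).
ZBTB7C: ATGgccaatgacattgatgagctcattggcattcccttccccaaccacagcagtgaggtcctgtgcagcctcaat
BCOR: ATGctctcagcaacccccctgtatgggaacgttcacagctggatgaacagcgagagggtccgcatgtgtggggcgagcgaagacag
RFX2: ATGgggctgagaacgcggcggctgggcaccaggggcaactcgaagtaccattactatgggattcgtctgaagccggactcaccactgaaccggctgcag
PABPC4: ATGaacgctgcggc
MRPL33, leading in young mitoplasts: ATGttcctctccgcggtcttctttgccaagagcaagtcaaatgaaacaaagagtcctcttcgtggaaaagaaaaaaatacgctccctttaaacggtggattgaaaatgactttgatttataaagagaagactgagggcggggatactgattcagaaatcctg
MRPL33, leading in senescent mitoplasts: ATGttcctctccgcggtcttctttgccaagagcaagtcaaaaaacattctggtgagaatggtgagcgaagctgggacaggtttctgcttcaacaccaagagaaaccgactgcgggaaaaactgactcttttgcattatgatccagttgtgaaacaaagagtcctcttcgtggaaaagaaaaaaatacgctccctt
The 2 MRPL33 stretches have their first 41 bases in common and then differ. In young mitoplasts the models had 27.2 and 20.0 FPKM, in the order shown, and in senescent mitoplasts the first was listed at 0 and the second had 30.6 FPKM.

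Transcripts assembled from the reads, without an Ensembl name, made up 54.2% (young) and 77.0% (senescent) of all FPKM in whole cells, and 92.8% (young) and 97.5% (senescent) in mitoplasts. The coding sum was lowest in senescent mitoplasts, at 87137 FPKM, against 274564 FPKM in young mitoplasts, 289876 FPKM in senescent and 349289 FPKM in young whole cells. Of 10 fibroblast markers, 8, 10, 8 and 7 reached 1 FPKM in whole cells (young, then senescent) and in mitoplasts (young, then senescent), with coding sums of 7753, 4272, 5597 and 799.9 FPKM. VIM, vimentin, was listed at 0 in senescent mitoplasts. Blood and immune markers were below 1 FPKM for 8 of 8 genes in each library, and epithelial markers reached 1 FPKM for 2 to 3 of 8, endothelial for 1 of 5, neural for 1 to 3 of 6 and muscle for 0 to 1 of 6. The part of such cells in the members' values was not tested. The files hold no counts, so depth is unknown and no interval can be given.

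Most members had no coding FPKM in whole cells. Of the 20, 16 were listed at 0 in young whole cells, 15 in the senescent ones, 13 in both and 18 in at least 1. In these files an exact 0 can be a failed or reassigned estimate, so such genes are described as listed at 0, and no mitoplast over whole cell ratio is printed against a 0. Only SLCO5A1 and BCOR were above 0 in all 4 libraries. For BCOR, the main models differed between whole cells and mitoplasts, as given below. In every member but SLCO5A1, the coding transcript with the most FPKM over both mitoplast libraries was listed at 0 in both whole cell libraries. No comparison gene could be at 0 in both whole cell libraries, since the rule would then have taken it, and 21 of the 558 (3.76%) were at 0 in 1 of them.

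**Figure D1:**
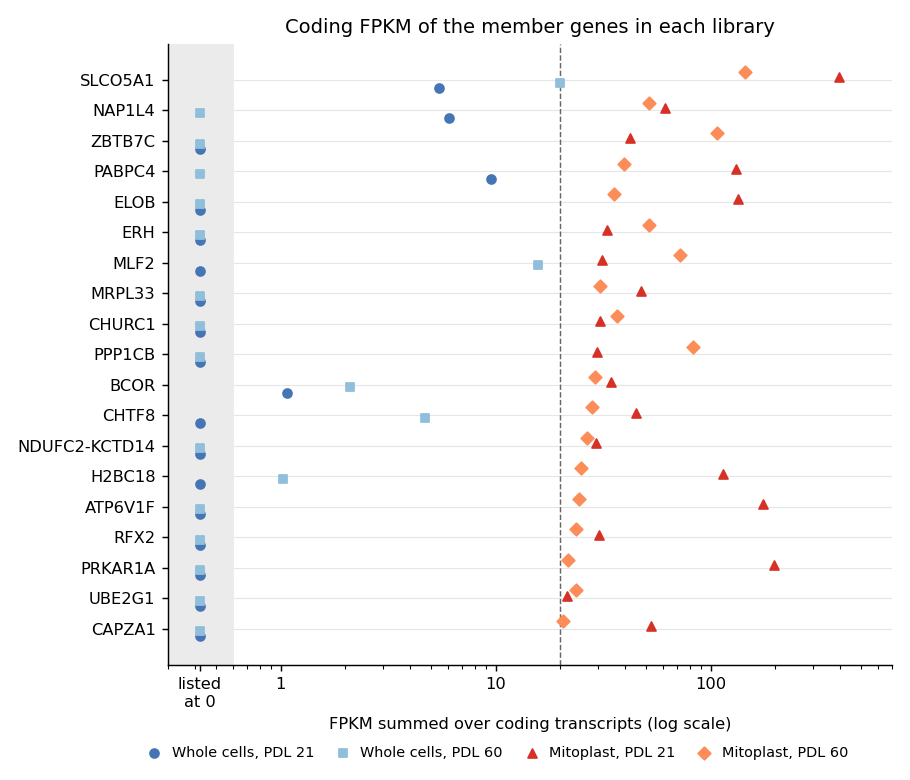
Coding FPKM of 19 members in the 4 libraries, 1 library per group, on a log axis, with the mitoplast minimum of 20 FPKM dashed. Points in the grey band are genes listed at 0, which holds for 12 of those drawn in both whole cell libraries.

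Gene regulation and chromatin gave 8 members. ZBTB7C was listed at 0 in whole cells at both doubling levels, with 42.3 FPKM in young and 107 FPKM in senescent mitoplasts. BCOR had 1.07 FPKM in young and 2.10 FPKM in senescent whole cells, against 34.3 and 29 FPKM in young and senescent mitoplasts. Its whole cell FPKM came from models of 6258 to 6358 nt, which had 0 in young and 0.883 FPKM in senescent mitoplasts. Of its mitoplast FPKM, 95.6% was of a 288-nt model that was listed at 0 in both whole cell libraries. The higher mitoplast level of BCOR thus rests on this short model. RFX2 was listed at 0 in both whole cell libraries and had 30.3 FPKM in young and 23.5 FPKM in senescent mitoplasts. These 3 regulators were led by models of 288 to 347 nt that have no annotated end. H2BC18, a replication-dependent histone H2B gene, was listed at 0 in young whole cells, with 1.02 FPKM in senescent whole cells, 114 FPKM in young and 25 FPKM in senescent mitoplasts. NAP1L4, of the nucleosome assembly protein family of histone chaperones, had 6.10 FPKM in young and 0 in senescent whole cells, and 61.2 and 51.9 FPKM in young and senescent mitoplasts. CHTF8, a part of an alternative clamp loader used in sister chromatid cohesion, was listed at 0 in young whole cells, with 4.70 FPKM in senescent whole cells, 44.9 FPKM in young and 28.0 FPKM in senescent mitoplasts. All 3 were above their whole cell values in both mitoplast libraries, which the rule required. ERH, a small conserved nuclear protein, and CHURC1, a zinc-binding protein, were listed at 0 in both whole cell libraries. ERH had 33.0 FPKM in young and 51.6 FPKM in senescent mitoplasts, and CHURC1 had 30.5 and 36.8 FPKM.

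Among signalling proteins, 2 members described here were listed at 0 in whole cells at both doubling levels. PPP1CB, a catalytic subunit of protein phosphatase 1, had 29.5 FPKM in young and 82.8 FPKM in senescent mitoplasts. PRKAR1A, a regulatory subunit of protein kinase A, had 196 FPKM in young and 21.7 FPKM in senescent mitoplasts. PRKAR1A thus stood highest of the 20 but for SLCO5A1 in young mitoplasts, and near the 20 FPKM minimum in senescent ones.

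Transport and energy metabolism gave 4 members. SLCO5A1, of the organic anion transporter polypeptide family, had the highest level of the 20 in both mitoplast libraries, 393 FPKM in young and 145 FPKM in senescent cells. Its whole cell values were 5.45 FPKM in young and 19.9 FPKM in senescent cells, so its ratio was 61.0 at PDL 21 and 6.96 at PDL 60. ATP6V1F, a subunit of the proton pump that acidifies vesicles, was listed at 0 in both whole cell libraries, with 175 FPKM in young and 24.5 FPKM in senescent mitoplasts. MRPL33 was listed at 0 in both whole cell libraries, with 47.3 FPKM in young and 30.6 FPKM in senescent mitoplasts. NDUFC2-KCTD14 was also listed at 0 in both, with 29.3 and 26.6 FPKM.

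Protein and RNA handling, the cytoskeleton and 1 protein of less certain role gave 5 members. ELOB, elongin B, an adaptor of the elongin complex and of cullin ubiquitin ligases, was listed at 0 in both whole cell libraries, with 133 FPKM in young and 35.4 FPKM in senescent mitoplasts. UBE2G1, a ubiquitin-conjugating enzyme, was listed at 0 in both, with 21.6 and 23.6 FPKM. PABPC4 had 9.55 FPKM in young and 0 in senescent whole cells, and 131 FPKM in young and 39.6 FPKM in senescent mitoplasts. CAPZA1, a subunit of the protein that caps actin filaments, was listed at 0 in both whole cell libraries, with 52.8 and 20.6 FPKM in young and senescent mitoplasts. MLF2, myeloid leukemia factor 2, was listed at 0 in young whole cells, with 15.7 FPKM in senescent whole cells, 31.2 FPKM in young and 71.9 FPKM in senescent mitoplasts.

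**Figure D2:**
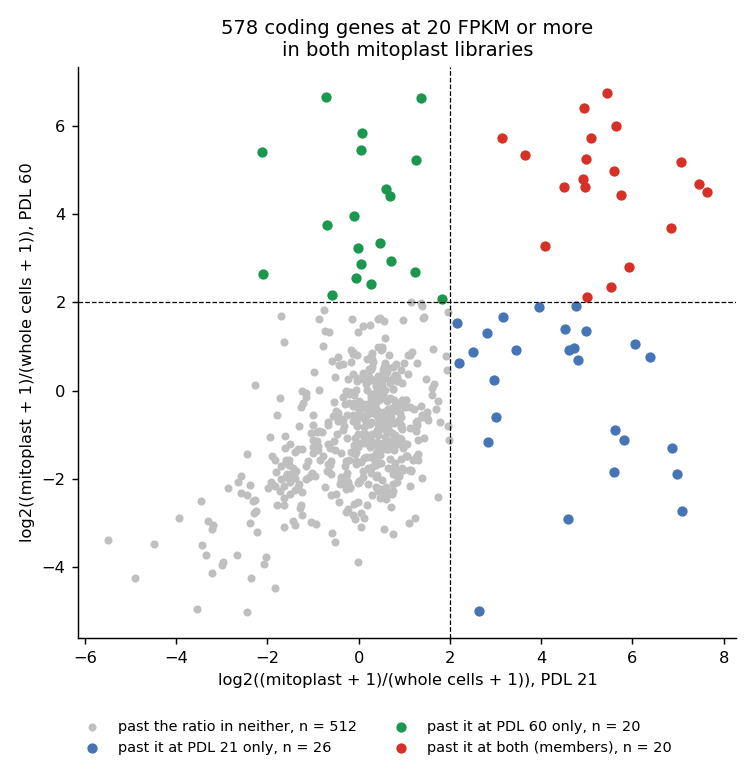
Log2 of (mitoplast + 1)/(whole cells + 1) at PDL 21 against PDL 60 for 578 coding genes at 20 FPKM or more in both mitoplast libraries, 1 point per gene. Dashed lines mark the ratio of 4; the 20 members fill the upper right by choice, and a ratio against a whole cell value of 0 is set by the added 1 FPKM.

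The members nearest to the ratio of 4 by their smaller ratio were MLF2 at 4.37 and CHTF8 at 5.08, followed by SLCO5A1 at 6.96. Just outside were HFM1, a helicase of meiotic recombination, with ratios of 27.0 in young and 3.78 in senescent cells, SEM1, a small proteasome subunit, with 15.5 and 3.70, and EPB41L2, of the protein 4.1 family of membrane skeleton proteins, with 3.56 and 4.21. HFM1 far exceeded every member in mitoplasts, with 9993 FPKM in young and 4533 FPKM in senescent cells, against 369 and 1200 FPKM in whole cells. Its leading transcript in mitoplasts was a short model of 540 nt, and those of SEM1 and EPB41L2 had 350 and 585 nt. Just under the mitoplast minimum were ZNF317 at 39.2 FPKM in young and 19.9 FPKM in senescent mitoplasts, PDK2 at 35.7 and 18.1 FPKM, and CYRIB at 17.8 and 50.5 FPKM, all 3 listed at 0 in both whole cell libraries. Among comparison genes of high mitoplast level, RBPMS passed the ratio in young cells only, HNRNPA1, RPS13 and ILF2 in senescent cells only, and FTL, SEPTIN11 and CD44 in neither.

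Being listed at 0 for coding transcripts did not mean that the locus was empty in whole cells. A locus here is the set of transcripts that the files place together, with noncoding, assembled and neighbouring-gene transcripts included. Of the 13 members listed at 0 in both whole cell libraries, 9 had a locus total of 1 FPKM or more in both, 2 in 1 of them (ERH and ATP6V1F), and 2 in neither (ZBTB7C and ELOB). When all transcripts of the locus were summed, 7 of the 20 members kept a ratio of 4 or more at both doubling levels, 4 at 1 level and 9 at neither. Of the 558 comparison genes, 0 passed at both levels by the locus total, 19 at 1 and 539 at neither. The locus of a member held several genes in 9 of 20 cases (45%) and in 130 of 558 comparison genes (23.3%). The locus totals include the values that chose the members, so these counts are descriptions.

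The members that kept the ratio over the locus included SLCO5A1, ZBTB7C, ELOB, BCOR, CHTF8 and RFX2. At ELOB nothing else was listed in the locus in any library: the locus total was 0 in both whole cell libraries, 133 FPKM in young and 35.4 FPKM in senescent mitoplasts. For whole cells the ZBTB7C locus total was 0 in young and 0.073 FPKM in senescent ones, against 42.3 and 107 FPKM in mitoplasts. BCOR had locus totals of 2.60 and 3.63 FPKM in young and senescent whole cells, and its ratio was 9.80 and 6.47. Its mitoplast totals were mostly of its 288-nt model, listed at 0 in both whole cell libraries. At RFX2, where 2 genes shared the locus, whole cells had 2.51 and 2.32 FPKM and the ratio was 8.94 and 7.39. SLCO5A1 and CHTF8 had no other transcript above 0 in their loci that changed a ratio, which stayed at 61.0 and 6.96 for SLCO5A1 and at 5.08 in senescent cells for CHTF8. The leading transcript was under 600 nt in 5 of the 7 genes that kept the ratio. It was annotated with both ends in 3 of the 7: SLCO5A1, CHTF8 and, among those under 600 nt, only ELOB.

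ERH, H2BC18, ATP6V1F and UBE2G1 kept the ratio at 1 doubling level. ERH had 30.9 FPKM of a noncoding processed transcript in young whole cells, where its locus ratio was 1.78, and nothing in its locus in senescent whole cells. At H2BC18, an assembled transcript that also spanned the histone gene H2BC21 brought the locus in young whole cells to 124 FPKM and the ratio to 0.921, against 6.19 in senescent cells. The ATP6V1F locus was at 0 in young whole cells and was merged with that of FLNC in senescent whole cells, at 83.5 FPKM and a ratio of 0.302. UBE2G1 was near the limit at both levels, with locus ratios of 3.71 and 4.02.

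For the remaining 9 members, the locus ratio was under 4 at both doubling levels. The CHURC1 locus was the extreme case: it had 1096 FPKM in young and 1256 FPKM in senescent whole cells, nearly all in a 207-nt transcript of the readthrough gene CHURC1-FNTB, against 462 and 67.7 FPKM in mitoplasts. MRPL33 had locus totals of 108 and 183 FPKM in young and senescent whole cells, above the 94.7 and 50.3 FPKM in mitoplasts. In PRKAR1A an assembled transcript shared with a neighbouring gene brought whole cells to 173 and 195 FPKM, against 196 and 49.4 FPKM in mitoplasts. At NDUFC2-KCTD14, transcripts of NDUFC2 itself were among those in whole cells, with locus totals of 151 and 119 FPKM in young and senescent whole cells and 152 and 62.3 FPKM in mitoplasts. CAPZA1 had 112 and 123 FPKM in whole cells, mostly of a noncoding transcript, against 109 and 54.9 FPKM in mitoplasts. The highest locus ratio of these 5 genes at either doubling level was the 1.14 of PRKAR1A in young cells.

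PABPC4, NAP1L4, MLF2 and PPP1CB lay between. PABPC4 had a retained-intron transcript at 99.8 and 58.2 FPKM in young and senescent whole cells, and 94.3 FPKM of it in young mitoplasts. In senescent mitoplasts that transcript was listed at 0 and another retained-intron transcript, listed at 0 in the other 3 libraries, had 31.8 FPKM. The locus ratio of PABPC4 was 1.91 and 1.04. NAP1L4 had a retained-intron transcript at 52.5 FPKM in young whole cells, with locus ratios of 1.43 and 1.97. At MLF2 the locus ratio was 2.36 and 1.46, and at PPP1CB, which shared its locus with SPDYA, it was 1.96 and 2.75.

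**Figure D3:**
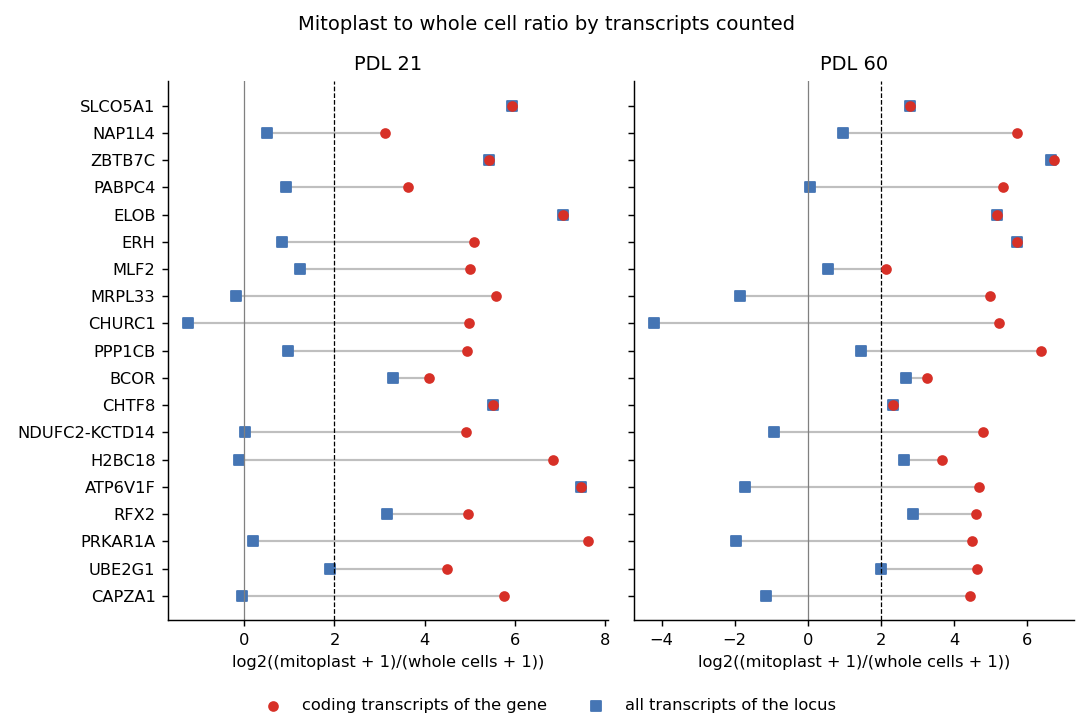
Log2 of (mitoplast + 1)/(whole cells + 1) for 19 members from their coding transcripts and from all transcripts of their locus, at PDL 21 and PDL 60, 1 library per group. The dashed line marks the ratio of 4, which 6 of those drawn kept at both levels over the locus.

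The rule did not use the structure of the transcripts. Leading transcripts of members had a median length of 556.5 nt (281 to 3020 nt), against 693.5 nt (209 to 10262 nt) in the comparison genes. Leading transcripts under 600 nt were found in 13 of 20 members (65%) and in 221 of 558 comparison genes (39.6%). With the lower of the 2 mitoplast values between 20 and 40 FPKM, the share was 10 of 16 members (62.5%) and 103 of 288 comparison genes (35.8%). Between 40 and 80 FPKM it was 3 of 3 members and 45 of 143 comparison genes (31.5%). At 80 FPKM or more it was 0 of 1 member and 73 of 127 comparison genes (57.5%). FPKM divides by length, so a given number of fragments weighs more in a short transcript, and whether length takes part in the ratio was not tested. The share was also high, at 15 of 20 (75%), in genes past the ratio in senescent cells only, and 42.3% in those past it in young cells only.

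Models without an annotated start or end led in 9 of 20 members (45%) and 178 of 558 comparison genes (31.9%). Between 20 and 40 FPKM the shares were close, at 6 of 16 members (37.5%) and 102 of 288 comparison genes (35.4%), and between 40 and 80 FPKM they were 3 of 3 and 42 of 143 (29.4%). At 80 FPKM or more they were 0 of 1 and 34 of 127 (26.8%). Coding bases were a median 46.7% of the leading transcript in members (2.63% in PABPC4 to 90.5% in SLCO5A1) and 65.2% in comparison genes. Leading transcripts had a median of 4 exons in members and 5 in comparison genes, and H2BC18 was the only single-exon member. In 14 of 20 members (70%) the same transcript led in both mitoplast libraries, against 65.4% of comparison genes. The leading transcript changed in NAP1L4, ERH, MLF2, MRPL33, PPP1CB and NDUFC2-KCTD14, and it was shorter in senescent mitoplasts in 5 of these 6, MRPL33 being the exception. It also changed in 193 comparison genes, where the direction was not counted, so shortening cannot be called particular to the members. PPP1CB went from a full 3527-nt model in young to a 281-nt partial model in senescent mitoplasts, and MLF2 from 1969 to 458 nt.

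**Figure D4:**
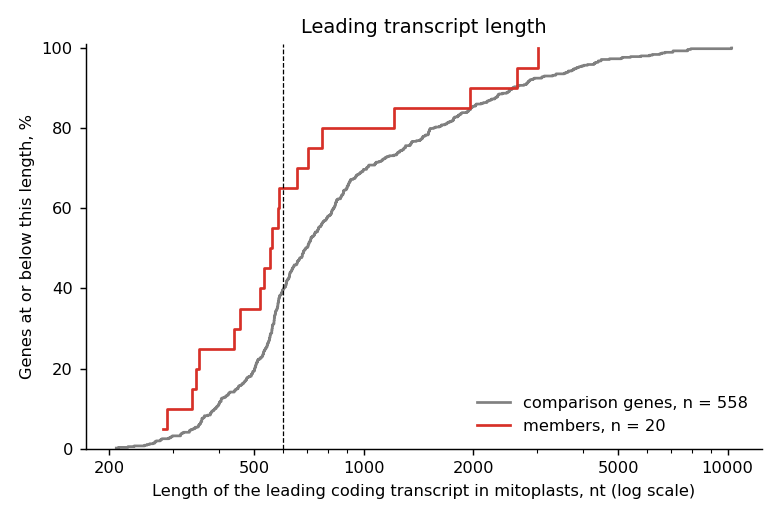
Percent of genes whose leading transcript is at or below a given length in nt (log axis), for members (red) and comparison genes (grey). The dashed line marks 600 nt, under which lie 13 of the 20 members and 221 of the 558 comparison genes.

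The base composition and repeated sequence of the leading transcripts were also compared. GC content of the leading transcript was a median 48.9% in members (33.8% in PPP1CB to 65.4% in PABPC4) and 51.9% in comparison genes. A run of 10 or more A was found in 1 member, PABPC4, whose longest run is 11 A, and in 30 comparison genes (5.38%). The share of 31-base words also found in transcripts of other genes was a median 2.33% in members and 7.65% in comparison genes. With the lower mitoplast value between 20 and 40 FPKM, which holds for 16 members, the order was the opposite, at 15.8% in members and 1.54% in comparison genes. The share was 50% or more in 2 members, CHURC1 (69.2%) and NDUFC2-KCTD14 (95.8%), where readthrough genes share the sequence, and in 103 comparison genes (18.5%). In 9 members no such word was shared. No leading transcript of either group shared a 31-base word with the annotated transcripts of the mitochondrial genome. Promoter windows from RefSeq, 250 bases before to 50 after the start, were found for 15 members and 458 comparison genes, with a median GC of 61.7% and 64.2%. The members lay on 12 chromosomes, with at most 4 on 1 (chromosome 1).

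Between young and senescent mitoplasts, the median member differed less than the median comparison gene in the deposited FPKM. The median log2((senescent + 1)/(young + 1)) was -0.29 in members and -1.21 in comparison genes. With the lower mitoplast value between 20 and 40 FPKM, which holds for 16 members, the gap was smaller, at -0.48 and -1.01. Between 40 and 80 FPKM the medians were 0.35 in 3 members and -1.22 in comparison genes. At 80 FPKM or more they were -1.44 in 1 member and -1.72 in comparison genes. The level and the 2 ratios of the rule used both mitoplast values, so this ratio is not independent of the choice. On this scale 7 members were at -1 or less, beside 56.4% of the 578 genes: PRKAR1A (-3.12), ATP6V1F (-2.78), H2BC18 (-2.14), ELOB (-1.88), PABPC4 (-1.70), SLCO5A1 (-1.44) and CAPZA1 (-1.32). A log2 ratio of 1 or more was found in 3 members, PPP1CB (1.46), ZBTB7C (1.31) and MLF2 (1.18), beside 4.33% of the 578 genes. The locus total of MLF2, with assembled transcripts, went the other way, from 144 FPKM in young to 71.9 FPKM in senescent mitoplasts. Locus totals of PPP1CB (62.2 to 92.7 FPKM) and ZBTB7C (42.3 to 107 FPKM) kept the direction. By coding transcripts, 13 members in all were lower and 7 higher in senescent mitoplasts, beside 462 lower and 96 higher of the 558 comparison genes. Scaling the libraries to an equal coding sum raised the mitoplast log2 ratios by 1.66, and scaling by the median of ratios by 1.22, before 1 FPKM is added. Both shifts are larger than the size of the comparison median, so the order of the medians above need not hold with them. The scaled medians of the comparison genes were not computed. With those scalings 5 and 7 members were lower, and PRKAR1A (-1.51 and -1.94) and ATP6V1F (-1.16 and -1.60) were the members still at -1 or less. Those at 1 or more were then 12 with equal sums and 8 with the median of ratios, against 3 on the deposited scale. The shares of the 578 genes with these scalings were not computed, so the scaled counts cannot be called particular to the members. SLCO5A1 was at 0.21 with equal sums and -0.23 with the median of ratios, and CAPZA1 at 0.29 and -0.14. The direction of these 2 thus flips with the first scaling, while the 3 members at 1 or more stayed there with both. Of those 3, PPP1CB and MLF2 were led in senescent mitoplasts by much shorter models (281 and 458 nt) than in young ones (3527 and 1969 nt). With transcripts of 600 nt or more, 0 of the 7 members of that setting were at 1 or more. Whether length takes part was not tested.

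In whole cells, 13 members were listed at 0 at both doubling levels. Of the other 7, SLCO5A1, MLF2, CHTF8 and H2BC18 had log2((senescent + 1)/(young + 1)) of 1 or more, beside 12.5% of the 578 genes, and PABPC4 and NAP1L4 of -1 or less, beside 23.5%. BCOR was at 0.58 and SLCO5A1 at 1.69. MLF2, CHTF8 and H2BC18 were listed at 0 in young whole cells, and PABPC4 and NAP1L4 in the senescent ones. Their ratios are thus set by the added 1 FPKM and are not given as folds. Only the log2 ratio of H2BC18 is printed, with that limit, among the flagged results. H2BC18 was under 1 with equal sums and with the median of ratios, which left 3 members at 1 or more. The locus total of H2BC18 went the other way, from 124 FPKM in young to 3.20 FPKM in senescent whole cells. That of MLF2 did too, from 60.5 to 48.8 FPKM, while those of SLCO5A1, CHTF8, PABPC4 and NAP1L4 kept their direction. SLCO5A1, above 0 in all 4 libraries, went from 5.45 to 19.9 FPKM in whole cells and from 393 to 145 FPKM in mitoplasts. Its whole cell ratio was 1.89 with equal sums and 1.78 with the median of ratios, so its direction in whole cells did not flip with either, whereas its mitoplast direction did with equal sums.

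**Figure D5:**
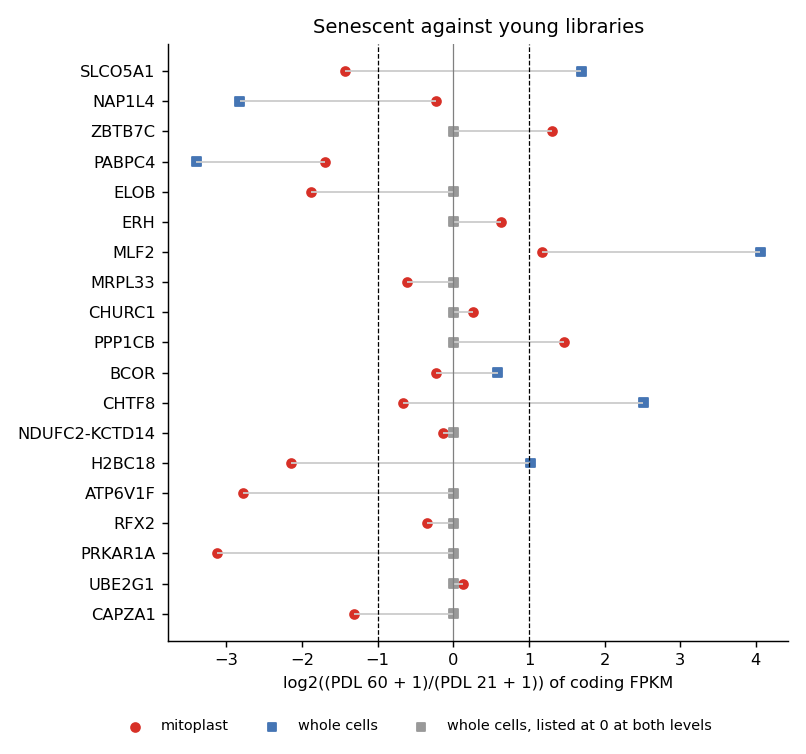
Log2 of (PDL 60 + 1)/(PDL 21 + 1) of coding FPKM for 19 members in mitoplasts (circles) and whole cells (squares, grey where listed at 0 at both levels), 1 library per group. Dashed lines mark -1 and 1; 7 members lie at or under -1 and 3 at or over 1 in mitoplasts on the deposited scale.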

How the data were processed

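RNA-seq of 4 libraries was used, 1 per group: whole cells and mitoplasts at PDL 21 and PDL 60. Libraries were made with a TruSeq RNA V2 kit, per the labels' protocols. The authors deposited FPKM per transcript, per the file headers, for annotated and assembled transcripts. Cufflinks 2.2.1, Cuffdiff, TopHat2 2.0.14 and build hg19 were named, with no order or role, per the submitters' processing notes. The annotation release, strand setting and scaling option were not given in the sources used here, so a gene and an overlapping or antisense gene cannot be told apart.

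From these values, FPKM of transcripts typed protein-coding was summed per nuclear gene with Python 3.11.15 and pandas 2.3.3. The files hold no type, so it was taken by transcript ID from GENCODE release 29, which matched about 93.0% of annotated transcripts; those without a type held 10.1% to 16.2% of annotated FPKM. Lengths, exons and coding sequence also came from that release (GRCh38), and no coordinate was moved between builds. The pseudocount was 1 FPKM. The selection code was tested on simulated data. Depth is unknown: the files hold no counts. In assembled transcripts, 5.86% (young whole cells) to 55.8% (young mitoplasts) of values were whole multiples of a fixed step. Each group is 1 library of 1 cell line, so no test was run.

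The members, gene lists and descriptions were chosen with earlier results of these data known. By the rule for named genes, the text could name members with the highest ratios and levels, those listed at 0, genes nearest to the limits, list members, and the 3 highest comparison genes per class; it takes in SLCO5A1 and BCOR for values above 0 in all libraries. Members that the rule left unnamed, and the locus neighbours H2BC21, FLNC, SPDYA and CHURC1-FNTB, were added after their values were seen, to account for the members; 1 member counted in the totals is not reported here. Alternatives were other sums, pseudocounts, limits, scalings, lengths and zeros, and, chosen after seeing the data, the locus total.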

Additional observations from a re-analysis of the deposited data

Results flagged for a closer look

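For 2 members the senescent library was higher than the young one in whole cells and lower in mitoplasts, with log2 ratios of 1 or more in size in both. SLCO5A1 had 1.69 in whole cells and -1.44 in mitoplasts. H2BC18 had 1.02 in whole cells and -2.14 in mitoplasts. The first value is set by the added 1 FPKM, since young whole cells list H2BC18 at 0 and senescent ones have 1.02 FPKM, and it was under 1 with both scalings (0.91 with equal coding sums, 0.80 with the median of ratios). It also rests on coding transcripts alone: the H2BC18 locus total, with an assembled transcript that spans a neighbouring gene, was 124 FPKM in young and 3.20 FPKM in senescent whole cells, the same direction as in mitoplasts. Each value compares 1 library with 1 library and the difference was not tested. With equal coding sums the mitoplast ratio was 0.21 for SLCO5A1 and -0.52 for H2BC18, so among coding transcripts the opposite direction held for H2BC18 only; with the median of ratios they were -0.23 and -0.95.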

How the results depend on the processing

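The number of members, 20, stayed at 17 to 25 with a pseudocount of 0.1 (20) or 5 (18), a ratio of 3 (25) or 8 (17), assembled transcripts of the gene added (20, of which 15 were members before) or the whole locus summed (21, of which 7 were; chosen after seeing the data). It was 38 with all annotated transcripts of a gene (15 shared), 53 with equal coding sums and 50 with the median of ratios (19 shared in each, UBE2G1 lost), 51 with a mitoplast minimum of 10 FPKM and 2 with 50 FPKM (SLCO5A1 and NAP1L4), 2 without genes listed at 0 in a whole cell library (SLCO5A1 and BCOR), and 7 with transcripts of 600 nt or more (6 shared). Members higher in senescent whole cells, 4 at first, were 9 with all annotated transcripts, 16 with equal sums and 15 with the median of ratios; lower ones, 2 at first, were 4 with each scaling and 0 with transcripts of 600 nt or more. Members higher in senescent mitoplasts, 3 at first, were 8, 22, 15 and 0 with all annotated transcripts, equal sums, the median of ratios and transcripts of 600 nt or more. These counts are over each alternative's own members, which numbered 38 with all annotated transcripts, 53 with equal sums, 50 with the median of ratios and 7 with 600 nt or more. A larger count can thus come from a larger set. The shares over all genes with each setting were not computed. The median length of the leading transcript was 1459 nt without genes listed at 0 and 1491 nt at 50 FPKM, each over 2 genes, with 0% single-exon genes in both. Equal sums and the median of ratios moved the log2 mitoplast over whole cell ratio by 0.35 and 0.45 in young and by 1.73 and 1.49 in senescent cells. No paired analysis was possible because each group has 1 library. With 1 library a group and no counts, neither replicate nor counting error can be given, and a low value cannot be told from a failed estimate.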
